A study of Mus musculus with 32 samples.

Results

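The CHD family of chromatin remodellers comprises 9 genes in the mouse, Chd1 to Chd9. They were taken by symbol from the gene list of the study, where they are 9 of 32285 genes, and each symbol stood on 1 row. The study profiled single cells of the dorsal telencephalon, the region of the embryonic brain that gives rise to the cerebral cortex, in C57BL/6J mouse embryos of 4 stages, from E12.5 over E14.5 and E16.0 up to E17.5. Wild-type embryos (WT) were compared with Chd8+/- embryos, which carry 1 altered copy of Chd8 and are called het here. The labels used here do not state how the Chd8 allele was made. Each stage and genotype had 4 libraries of 1 embryo each, so that 32 libraries formed 8 groups. The embryos were matched by litter and sex into 16 pairs of WT and het. Pairs are named M1 and M2 (males) and F1 and F2 (females), and medial tissue had been trimmed away to keep out the hippocampal primordium.

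CHD proteins are ATP-driven motors that slide, evict or assemble nucleosomes, and all carry a pair of chromodomains ahead of a SNF2-type ATPase. Chd1 and Chd2 bind DNA directly and act at transcribed genes, Chd1 through recognition of a histone mark at active starts. Chd3, Chd4 and Chd5 are alternative ATPases of NuRD, a complex that joins remodelling to histone deacetylation, and in the developing cortex they replace each other as cells pass from progenitor to neuron. Chd6, Chd7, Chd8 and Chd9 form the third subfamily. Chd7 binds enhancers and is the gene of CHARGE syndrome, Chd8 binds promoters and is among the genes most often mutated in autism, and Chd6 and Chd9 are less well known.

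Promoter sequences are shown for the NuRD motors Chd4 and Chd5, which lay farthest apart in level among WT cells at E12.5 (at later stages Chd3 and Chd5 did), and for the targeted gene, Chd8. They were taken from RefSeq's promoter table (build GRCm38.p6), which matched 5 of the 9 members, Chd4, Chd5, Chd6, Chd8 and Chd9. Each line gives 100 bases from 150 to 51 bases before the start, 5′ to 3′ on the gene's strand, with every CG in capitals. The windows lie at chr6:125095831-125095930 (+ strand), chr4:152338501-152338600 (+ strand) and chr14:52257811-52257910 (− strand).
Chd4: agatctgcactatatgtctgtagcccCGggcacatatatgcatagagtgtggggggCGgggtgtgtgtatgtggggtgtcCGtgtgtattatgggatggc
Chd5: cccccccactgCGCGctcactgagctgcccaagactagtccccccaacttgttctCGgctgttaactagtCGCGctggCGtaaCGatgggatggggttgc
Chd8: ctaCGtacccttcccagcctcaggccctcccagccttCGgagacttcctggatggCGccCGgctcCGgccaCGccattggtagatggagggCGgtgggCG
The motif searched was CG, which reads alike on both strands. In the 250 bases before the start, this Chd4 entry held 12 CG and another Chd4 start 23, this Chd5 entry 21 and another Chd5 start 22, the Chd8 entry 20, and the Chd6 entry held 19. The 2 Chd9 entries held 16 and 1. Over all 32851 entries the median was 6, and 19.7% held at least 19. These counts describe the windows only.

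The transcripts were counted as 3′ UMIs, each of which marks 1 captured RNA molecule. Levels are UMI CPM: a gene's share of all UMIs in the summed cells of a library, scaled to counts per 1000000. Since a transcript gives its tag at the 3′ end whatever its length, levels of different genes were set side by side without a correction for length, although capture can differ between 3′ ends. In GENCODE M21 (GRCm38) the members lie on 8 chromosomes, with Chd5 and Chd7 both on chromosome 4. Chd8 spans chr14:52198151-52257780 (− strand) and overlaps Snord8 and, on the other strand, Gm26590. Chd7 spans chr4:8690406-8867659 (+ strand) and overlaps no annotated gene, and Chd5 spans chr4:152338651-152390194 (+ strand) and overlaps Gm13645 on the other strand. Chd3 spans chr11:69343273-69369406 (− strand) and Chd4 chr6:125095981-125130591 (+ strand), which overlap 1 and 2 other annotated genes, all on their own strand. Chd2, at chr7:73426638-73541830 (− strand), overlaps 5 annotated genes, 4 of them on its own strand, and Chd9, at chr8:90828352-91054516 (+ strand), overlaps 4, so UMIs of both may include those of neighbours. Chd1 spans chr17:15704967-15772610 (+ strand) and Chd6 chr2:160946978-161109075 (− strand), the latter with Gm25561 on the other strand. Whether the authors counted by strand is not given in the sources used here.

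Of 145082 barcodes, 138226 cells were retained after filters, between 2399 and 6951 per library, and the libraries held between 14710694 and 66499864 UMIs. Libraries shared between 7 and 66 barcodes by pair, at most 1.30% of the smaller library. Progenitors were cells with at least 1 UMI of Sox2 and none of Neurod6, and neurons the reverse. Cells with both markers (11.4%) were left out of both classes. Progenitors made up 55.7% of retained cells at E12.5 and 10.6% at E17.5, and neurons 16.7% and 70.5%. The summed level of 8 radial glia markers lay between 3235 and 14477 CPM in progenitors and between 386 and 1131 CPM in neurons, and the excitatory neuron list lay between 3734 and 5998 CPM in neurons and between 208 and 1256 CPM in progenitors. A list of oligodendrocyte precursor markers summed to at most 1.86 CPM in progenitors at E12.5 and to between 281 and 684 CPM at E17.5. At E17.5, Olig1 averaged 266 CPM, Olig2 162 CPM, Pdgfra 22.8 CPM and Sox10 7.16 CPM in progenitors. Whether the later progenitor class held other cells was not tested. At E17.5, 3 of 8 libraries stood apart, WT M1, het M1 and het F1: their stress genes summed to 912 to 1136 CPM against 356 to 749 CPM, and their ribosomal share was 15.2% to 16.2% against 17.7% to 19.1%. The sample descriptions of all 3 carry the code p. That of WT F1 carries it too, and WT F1 had 749 CPM of stress genes and a ribosomal share of 17.7%. The part of this code was not tested. At E12.5, the het libraries M1, F1 and F2 had median depths of 4094.5 to 5973 UMIs per cell, against 10535 in het M2 and 8567.5 to 10479.5 in WT. These 3 also lay away from the other 5 E12.5 libraries: their stress genes summed to 1054 to 1353 CPM against 671 to 1040 CPM, and on the first principal component of log2(CPM + 1) at that stage they scored 14.9 to 30.8 against −17.04 to −5.74.

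In all cells of WT embryos, Chd4 was the most abundant member at E12.5 and Chd3 at each later stage, while Chd5 was the least abundant at every stage. At E12.5, Chd4 had 117 ± 9.3 CPM (SD, n = 4), Chd7 98.0 ± 10.4 CPM and Chd3 94.5 ± 13.3 CPM, and the ranges of neighbours in this order overlapped. Chd2, Chd8 and Chd6 followed between 37.8 and 43.9 CPM with overlapping ranges, then Chd1 (26.7 ± 2.5 CPM) and Chd9 (20.1 ± 2.6 CPM). Chd5 had 1.11 ± 0.19 CPM, with no overlap with Chd9. At E16.0, Chd3 stood at 225 ± 32 CPM and Chd4 at 143 ± 2.6 CPM, with no overlap between them, and 5 members (Chd2, Chd6, Chd8, Chd9 and Chd7) lay between 51.1 and 67.8 CPM, each overlapping its neighbour. Chd1 followed at 28.5 ± 1.5 CPM and Chd5 at 7.59 ± 1.95 CPM. Between these stages Chd3 went from the third place to the first and Chd7 from the second to the seventh. In sums over all cells, fewer cells of a type and less RNA per cell cannot be told apart.

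**Figure D1:**
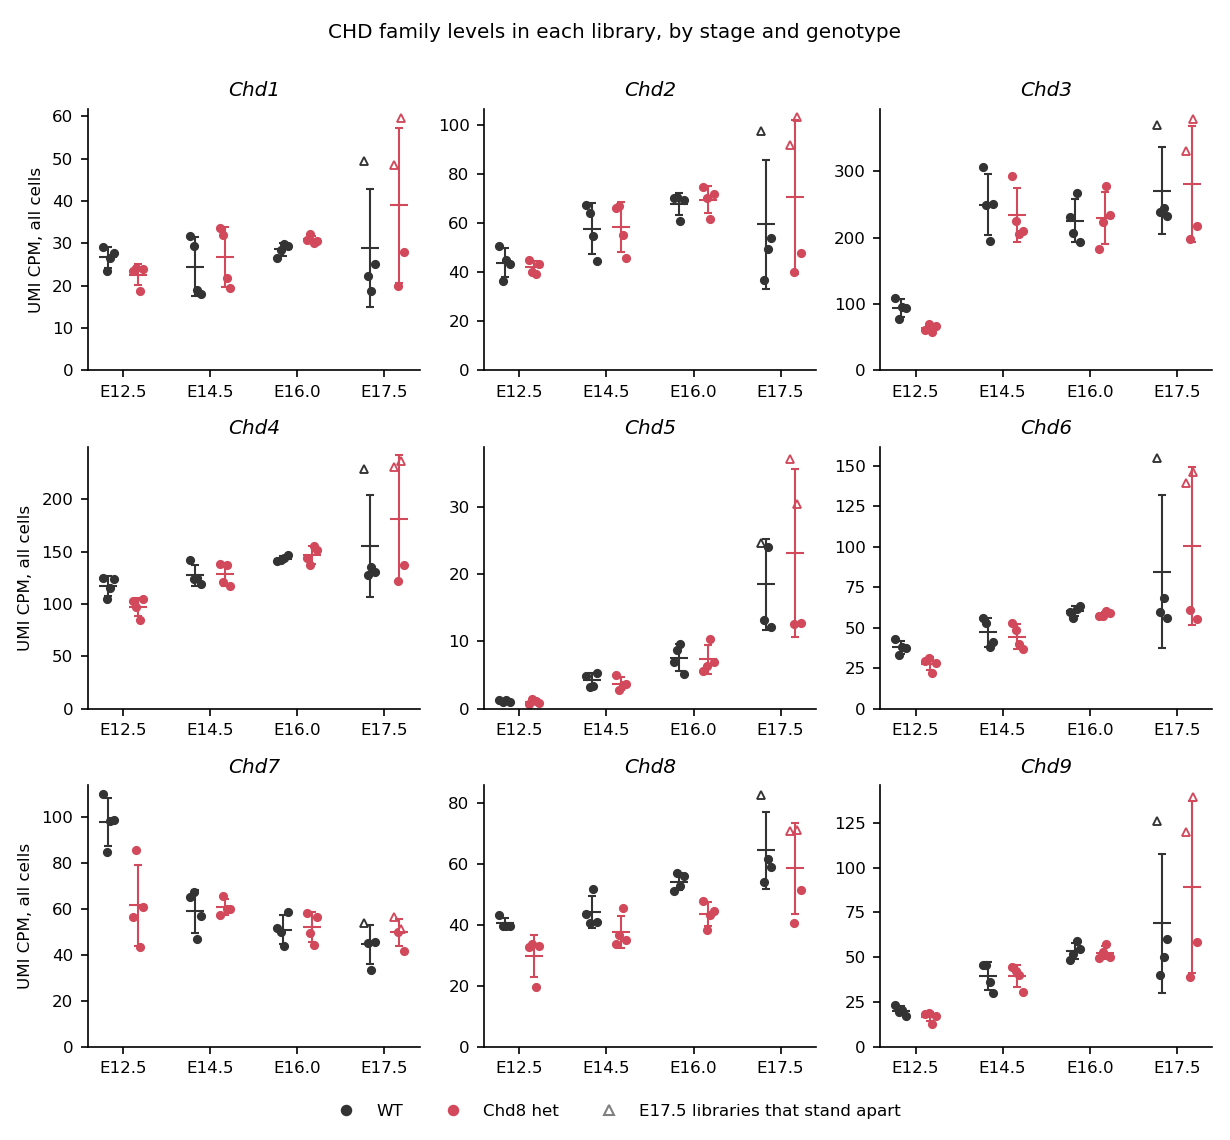
Levels of the 9 members in all retained cells of each library (UMI CPM, y axis from 0) by stage, WT in dark grey and het in red, with horizontal bars at group means and error bars of 1 SD (n = 4). Open triangles are the 3 E17.5 libraries that stand apart: they lie above all other E17.5 libraries for each member, with Chd6 at 139 to 155 CPM against 55.1 to 68.2 CPM.

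Between E12.5 and E17.5 in WT, 6 of the 9 members changed in all cells by edgeR's quasi-likelihood test with Benjamini-Hochberg adjustment over all genes, at an adjusted p under 0.05. Of all genes tested, 67.7% passed this test, 34.7% higher and 32.9% lower at E17.5, so the members' count is close to that of genes at large. Chd5, a motor known for neurons, rose most, by 3.84 on the log2 scale (SE 0.34, adjusted p = 4.9e-11). Its 4 WT libraries held 1.28, 0.927, 1.27 and 0.952 CPM at E12.5 (in the order M1, M2, F1, F2, as in all such lists) and 24.5, 13.2, 23.95 and 12.1 CPM at E17.5. The groups did not overlap, and M1 and F1 were the high pair at E17.5. The sample descriptions of both carry the code p, in het too, where M1 and F1 held 37.0 and 30.3 CPM and M2 and F2, with the codes c17 and c16, held 12.5 and 12.7 CPM. The part of this code in the level of Chd5 was not tested. Chd9 rose by 1.55 (SE 0.27, adjusted p = 1.1e-05), Chd3 by 1.30 (SE 0.18, adjusted p = 1.9e-07), Chd6 by 0.94 (SE 0.25, adjusted p = 0.0013) and Chd8 by 0.45 (SE 0.14, adjusted p = 0.0073). Chd7 was the member that fell, by 1.35 on the log2 scale (SE 0.14, adjusted p = 1.5e-09), from 110, 84.8, 98.4 and 98.6 CPM to 54.1, 45.3, 33.6 and 45.8 CPM. The WT groups of Chd7 did not overlap either. Chd1 (log2 difference −0.11, 95% interval −0.61 to 0.38), Chd2 (0.21, −0.22 to 0.65) and Chd4 (0.19, −0.12 to 0.50) did not pass. Over leaving out each library, Chd1 lay between −0.48 and 0.04, Chd2 between −0.11 and 0.37 and Chd4 between −0.04 and 0.30, none called.

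The library WT M1, which stands apart at E17.5, carried part of these values. Without it the call for Chd8 was lost, and Chd6 was reduced to 0.50 on the log2 scale (adjusted p = 0.036). Without all 3 libraries that stand apart, where 66.3% of genes passed, Chd8 passed again at 0.34 (adjusted p = 0.025), Chd9 stood at 1.13, Chd3 at 1.15, Chd5 at 3.70 and Chd7 at −1.43, and Chd1 now passed at −0.47 (adjusted p = 0.013). The part of the stress genes in these levels was not tested.

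Within classes, Chd5, Chd9, Chd6 and Chd3 rose in both, and Chd7 fell in neurons. In WT progenitors, 4 of 9 members rose from E12.5 to E17.5 and none fell, where 57.2% of genes passed (29.2% higher, 28% lower, and 53.9% without the 3 libraries that stand apart). They were Chd5 (3.39, SE 0.43), Chd9 (1.36, SE 0.27), Chd6 (0.84, SE 0.24, adjusted p = 0.0035) and Chd3 (0.46, SE 0.19, adjusted p = 0.037). Chd1 (−0.11), Chd2 (0.26), Chd4 (0.03), Chd7 (0.24) and Chd8 (0.225) did not pass. In the same WT progenitor sums, the excitatory neuron markers went from 345 to 375 CPM at E12.5 to 585 to 1256 CPM at E17.5, and 6 interneuron markers from 2.73 to 30.5 CPM to 230 to 824 CPM. Their part in the rise of Chd5, Chd9 and Chd3, all higher in neurons, was not tested. In WT neurons, 5 members rose and Chd7 fell, where 55.6% of genes passed (28.7% higher, 26.9% lower, and 52.8% without these libraries). Chd5 rose by 2.67 (SE 0.31), Chd6 by 1.18 (SE 0.25), Chd9 by 1.17 (SE 0.25), Chd3 by 0.56 (SE 0.14) and Chd8 by 0.38 (SE 0.16, adjusted p = 0.042). Chd1 (0.53, adjusted p = 0.073), Chd2 (0.18) and Chd4 (−0.055) did not pass. Over leaving out each library, Chd1 lay between 0.21 and 0.67. It passed as higher without WT F1, het M2 or het F1 at E17.5. Several of these calls or values moved when 1 library was left out. Without WT M1 at E17.5, Chd6 in progenitors stood at 0.31 and was no longer called, and Chd6 in neurons stood at 0.79 and Chd9 in progenitors at 0.88 with their calls kept. The call for Chd3 in progenitors was lost without any 1 of 5 libraries and that for Chd8 in neurons without any 1 of 5, WT M1 at E17.5 among them in both. For Chd3 they include het M2 at E14.5, which enters this contrast only through the shared fit. Without all 3 libraries that stand apart, Chd1 (−0.55, adjusted p = 0.016) and Chd4 (−0.23, adjusted p = 0.043) passed as lower at E17.5 in progenitors, where with them Chd4 stood at 0.03. The mean of the WT and het contrasts, where 71.8% of genes passed, instead called Chd4 as higher there (0.31, adjusted p = 0.031), and without the 3 libraries this mean was −0.11 (adjusted p = 0.19), so the data give no stable direction for Chd4 in progenitors. In the WT contrast without these 3 libraries, the calls for Chd3 in progenitors (0.41, adjusted p = 0.056) and for Chd8 in neurons (0.30, adjusted p = 0.083) were lost.

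Averaged over stages, neurons and progenitors of the same library differed in 8 of the 9 members, 6 higher and 2 lower in neurons. This class difference was common: 89.2% of all genes passed, 46.3% higher and 42.9% lower. Chd5 was higher in neurons by 1.96 on the log2 scale (SE 0.08, adjusted p = 1e-21) and Chd3 by 1.94 (SE 0.03, adjusted p = 9.9e-33), which is 3.90-fold and 3.83-fold. Chd4, the third NuRD motor, was higher by 0.58 (SE 0.02), Chd9 by 0.63 (SE 0.03) and Chd8 by 0.52 (SE 0.03). Chd3, Chd4, Chd5 and Chd9 were higher in the neurons of 32 of 32 libraries, and Chd8 in 31 of 32. Chd2 was higher by 0.10 (SE 0.02), a call that was lost when cells with both markers were counted in both classes, and in only 19 of 32 libraries. Chd6 differed by 0.02 (95% interval −0.03 to 0.06). Chd1 was lower in neurons by −0.36 on the log2 scale (SE 0.03, lower in 31 of 32 libraries) and Chd7 by −1.40 (SE 0.04).

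**Figure D2:**
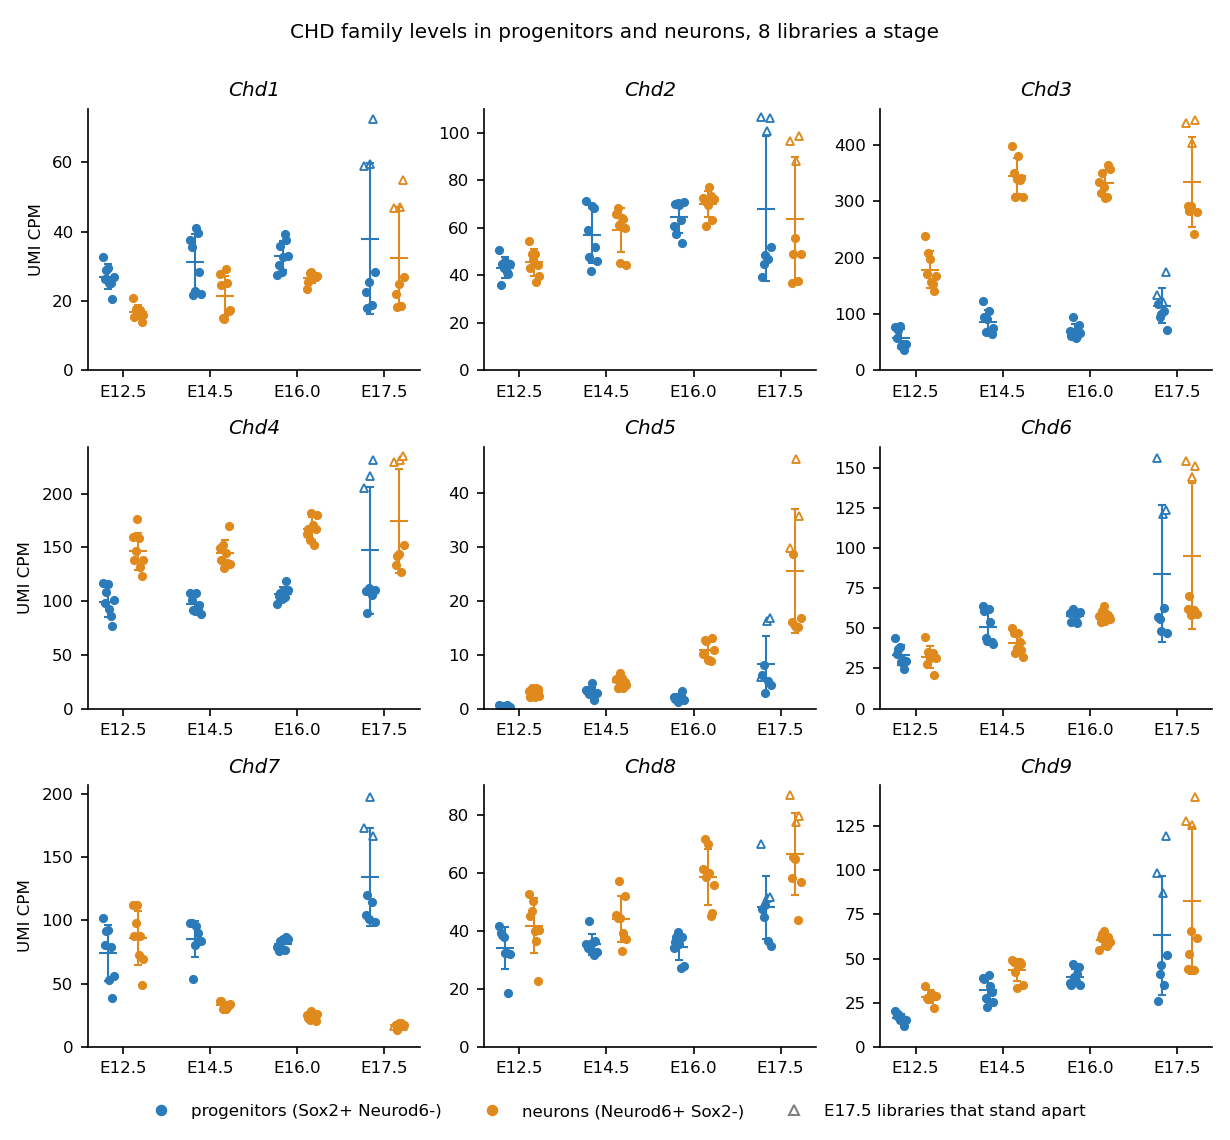
Levels of the 9 members in progenitors and neurons of each library (UMI CPM, y axis from 0) by stage, both genotypes together, with means. Chd7 falls in neurons, from a mean of 86.1 CPM at E12.5 to 16.97 CPM at E17.5, while the progenitor mean goes from 74.2 to 135 CPM; open triangles are the E17.5 libraries that stand apart.

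Chd7 was the member whose class difference changed most with stage. In WT neurons it stood at 112, 87.5, 98.0 and 112 CPM at E12.5 and at 36.6, 36.0, 30.1 and 31.3 CPM at E14.5. It went on to 25.0, 22.6, 21.4 and 28.7 CPM at E16.0 and to 16.4, 17.4, 13.5 and 19.1 CPM at E17.5. The 4 WT groups did not overlap, and each was lower than the one before. From E12.5 to E17.5 Chd7 fell in WT neurons by 2.74 on the log2 scale (SE 0.13, adjusted p = 2.3e-16), which is 6.70-fold, and the range over leaving out each library was −2.79 to −2.66. In the same WT neurons, the summed level of 5 intermediate progenitor markers went from a mean of 1416 CPM at E12.5 over 854 and 890 CPM to 517 CPM at E17.5, and that of the radial glia markers from 1012 to 530 CPM. The sum of 4 markers of Cajal-Retzius cells, early-born neurons of the cortical surface, went from 84.9 CPM over 29.1 and 12.4 CPM to 13.9 CPM. The intermediate progenitor and radial glia lists did not move as a whole. In neurons of both genotypes, Gadd45g went from 948 CPM at E12.5 to 69.9 CPM at E17.5 and Vim from 550 to 81.0 CPM. Eomes went from 176 over 111 and 164 to 106 CPM. Insm1 (85.0 to 128 CPM), Fabp7 (170 to 303 CPM), Slc1a3 (9.36 to 53.4 CPM) and Pax6 (57.1 to 67.3 CPM) rose. All other members of both lists fell. The part of these markers' cells in the fall of Chd7 was not tested. In WT progenitors it stood at 102, 80.9, 91.5 and 92.1 CPM at E12.5, at 98.1, 97.7, 53.9 and 80.5 CPM at E14.5, at 78.7, 76.0, 83.4 and 77.5 CPM at E16.0, and at 173, 104, 120 and 101 CPM at E17.5. The E12.5 and E17.5 groups overlapped, and the difference did not pass (0.24, 95% interval −0.11 to 0.59, adjusted p = 0.23). Leaving out each library gave values between 0.06 and 0.34, none called, and the lowest value over all alternatives was −0.04. With the mean of the WT and het contrasts, Chd7 passed as higher at E17.5 in progenitors (0.64, adjusted p = 2.83e-05), where 71.8% of genes passed. Without the 3 libraries that stand apart this mean was 0.38 (adjusted p = 0.0039), where 65.9% of genes passed. Both fits count the WT and het mates of a pair as independent embryos, although mates deviated together, so these p-values can be too small. Het progenitors held 52.7, 79.3, 38.5 and 56.2 CPM of Chd7 at E12.5 and 198, 114, 167 and 99.0 CPM at E17.5. At E12.5 the het libraries M1, F1 and F2 are the shallow ones described above. Their part in this mean was not tested. The progenitor class at E17.5 also held oligodendrocyte precursor markers at the sums given above and interneuron markers at up to 824 CPM, and their part in the Chd7 level was not tested.

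Het neurons held 48.8 to 87.7 CPM of Chd7 at E12.5 and 16.4 to 18.6 CPM at E17.5, again without overlap. At E12.5, Chd7 was higher in neurons than in progenitors in 8 of 8 libraries, by 0.22 on the log2 scale (SE 0.08, adjusted p = 0.014), where 78.5% of genes passed. The neuron class at this stage also held more of the intermediate progenitor markers than the progenitor class, with 1369 to 2407 CPM against 620 to 995 CPM over both genotypes. Eomes, which marks these cells, averaged 176 CPM in the neuron class and 21.3 CPM in the progenitor class. The part of these markers' cells in the Chd7 difference was not tested. The Chd7 call was lost with doublets kept and without any 1 of 15 libraries, where values lay between 0.11 and 0.18. These 15 include libraries of E14.5 and E17.5, which enter this E12.5 contrast only through the shared fit. From E14.5 on it was lower in the neurons of every library: by −1.27 at E14.5 (82% of genes passed), −1.66 at E16.0 (84.6%) and −2.90 at E17.5 (75.9%), with SE from 0.09 to 0.10. At E17.5, progenitors held 7.48-fold more than neurons in the fit. The change of the class difference from E12.5 to E17.5 was −3.13 (SE 0.13, adjusted p = 1.9e-19), with a range of −3.38 to −2.14 over all alternatives. Cells with both markers held 135 ± 23 CPM of Chd7 in WT at E12.5 and 94.9 ± 17.3 CPM at E17.5, above the neurons at each stage.

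**Figure D3:**
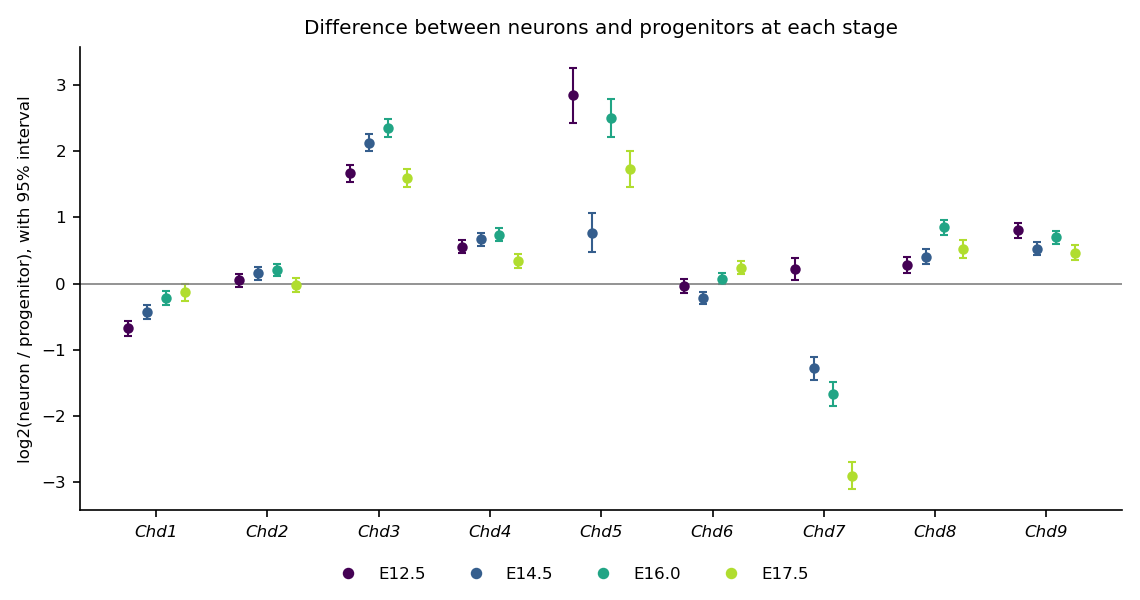
Log2 difference of neurons minus progenitors in each member at each stage, from the fit over all libraries, with 95% intervals. Chd7 goes from 0.22 at E12.5 to −2.90 at E17.5, whereas Chd3 stays between 1.60 and 2.35.

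The NuRD motors kept a neuronal bias at every stage. Chd3 held 76.7, 57.4, 72.3 and 79.3 CPM in WT progenitors and 238, 170, 209 and 197 CPM in WT neurons at E12.5. At E17.5 it held 135, 119, 95.2 and 99.7 CPM in progenitors and 439, 291, 283 and 291 CPM in neurons, with WT M1 the highest in both classes. Classes did not overlap at either stage, and the class difference of Chd3 at E17.5 minus that at E12.5 was −0.07 (95% interval −0.26 to 0.12) and −0.51 with cells thinned to 2000 UMIs each. Within neurons most of the rise of Chd3 lay before E14.5, when WT neurons already held 398, 350, 307 and 339 CPM. Chd5 was scarce in progenitors, with between 0 and 47 UMIs per library in this class. At E12.5, WT progenitors held 0.591, 0.462, 0.404 and 0.417 CPM and WT neurons 3.23, 2.17, 3.87 and 3.70 CPM. The 1 library with no UMI, het F1 at E12.5, allows up to 0.343 CPM. At E17.5, WT progenitors held 5.77, 6.22, 8.16 and 2.93 CPM and WT neurons 29.7, 16.1, 28.7 and 15.3 CPM. Free RNA from neurons was not modelled, and its part in these low progenitor values was not tested. Chd4 held between 76.8 and 116.5 CPM in the progenitors of both genotypes at E12.5 and between 123 and 176 CPM in their neurons, and was thus higher in neurons. It also had the highest mean in WT progenitors at each stage and led in 13 of 16 WT libraries, Chd3 leading in 2 and Chd7 in 1. At E17.5 Chd4 led in 2 of 4, and without WT M1 its mean was 103.5 CPM against 108.5 CPM for Chd7 and 104.5 CPM for Chd3.

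Between E12.5 and E17.5 the class difference changed in 7 of 9 members, where 56.9% of genes passed. It moved towards neurons for Chd1 (0.54, SE 0.08), Chd6 (0.28, SE 0.07) and Chd8 (0.24, SE 0.09), and towards progenitors for Chd7, Chd5 (−1.11, SE 0.25), Chd9 (−0.34, SE 0.08) and Chd4 (−0.22, SE 0.07). The Chd5 change was lost with at least 2 UMIs of the marker, with cells thinned to 2000 UMIs and with cells of both markers in both classes. The Chd4 change was lost without the 3 libraries that stand apart and without any 1 of 15 libraries. Among these 15 are E14.5 libraries, which enter this contrast only through the shared fit. The Chd8 change was lost without the 3 libraries that stand apart, without het F1 at E17.5 alone, with DESeq2 and with thinned cells. The Chd6 change was lost with thinned cells too. Chd2 (−0.08) and Chd3 (−0.07) did not pass. With thinned cells, where 40.7% of genes passed, the Chd3 change passed towards progenitors at −0.51 (adjusted p = 0.00096), with class differences of 1.72 at E12.5 and 1.21 at E17.5. With the pair as replicate block in place of the library, 3 of 9 members passed beside 52.5% of genes, and the calls for Chd4, Chd6, Chd8 and Chd9 were lost (adjusted p from 0.056 to 0.10). Leaving out 1 library moved 3 changes by over 1.5 times with the call kept. Chd6 reached 0.42 without WT M1 at E12.5 or het M2 at E17.5. Chd8 reached 0.37 to 0.40 without WT F2 at E12.5 or either M2 library at E17.5. Chd9 was reduced to values between −0.23 and −0.20 without WT M1, WT F2 or het M1 at E12.5 or het M2 or het F2 at E17.5. The class difference did not differ between het and WT for any of the 9 members by edgeR's test (0.014% of genes passed). At an unadjusted p under 0.05, 648 of 14334 genes did, where about 1 in 20 would pass without any difference. Chd2 and Chd3 were the members among them, with values of −0.13 (SE 0.05) and 0.16 (SE 0.06).

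Genes whose levels followed the same pattern were named by Pearson correlation of log2(CPM + 1) over the 32 class sums of the WT libraries, which share library, depth and class. For Chd8 they were Sos1 (r = 0.933), Huwe1 (0.931) and Clasp1 (0.927). For Chd5 they were AC149090.1 (0.954), Reps2 (0.942) and Mef2c (0.941), the last a transcription factor of postmitotic neurons. For Chd7 they were Isoc1 (0.927), Ckb (0.922) and Palld (0.917). These values describe the pattern and carry no test.

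The genotype comparison asks how far Chd8 itself is reduced and whether another member is raised in its place. The targeted gene was lower in het than in WT in 15 of 16 pairs. In all cells, WT libraries held 43.3, 39.5, 39.6 and 39.5 CPM of Chd8 at E12.5 and het libraries 32.5, 33.7, 19.6 and 33.1 CPM. At E14.5, WT held 43.4, 40.4, 51.6 and 40.8 CPM and het 33.7, 36.5, 45.4 and 35.1 CPM. At E16.0, WT held 50.9, 57.1, 52.7 and 55.8 CPM and het 47.9, 38.2, 43.3 and 44.6 CPM. At E17.5, WT held 82.5, 54.1, 61.6 and 58.9 CPM and het 70.7, 40.6, 71.1 and 51.3 CPM. The groups did not overlap at E12.5 or E16.0 and overlapped at E14.5 and E17.5. The pair in the other direction was F1 at E17.5, whose het library stands apart. At E12.5 the other 8 members together were lower in het too, at 333 CPM against 439 CPM in WT.

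Averaged over stages, the log2 difference of Chd8 in all cells was −0.28 (SE 0.07), a fold of 0.825 with a 95% interval of 0.744 to 0.914. This did not pass (adjusted p = 0.11). The interval did not reach a fold of 0.5. With the pair as replicate block, Chd8 fell by 0.29 on the log2 scale and passed (adjusted p = 0.0045), with 1.7% of genes passing. It also passed in DESeq2 (−0.28, adjusted p = 0.022, 0.826% of genes) and without the 3 libraries that stand apart (−0.32, adjusted p = 0.0195, 0.393% of genes). These 3 include het F1 of E17.5, from the pair in the other direction. In progenitors the difference was −0.25 (SE 0.07, adjusted p = 0.21), lower in 13 of 16 pairs, and passed with the block (adjusted p = 0.049). In neurons it was −0.29 (SE 0.08, adjusted p = 0.19), lower in 15 of 16 pairs, and passed with the block (adjusted p = 0.0046) and without the 3 libraries (−0.34, adjusted p = 0.033, 0.273% of genes). Without all E12.5 libraries, Chd8 in all cells stood at −0.26 (adjusted p = 0.59), and Chd7 at 0.05 in place of −0.11, neither called. A 3′ tag can also come from an altered transcript, so these values do not measure intact Chd8 mRNA.

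**Figure D4:**
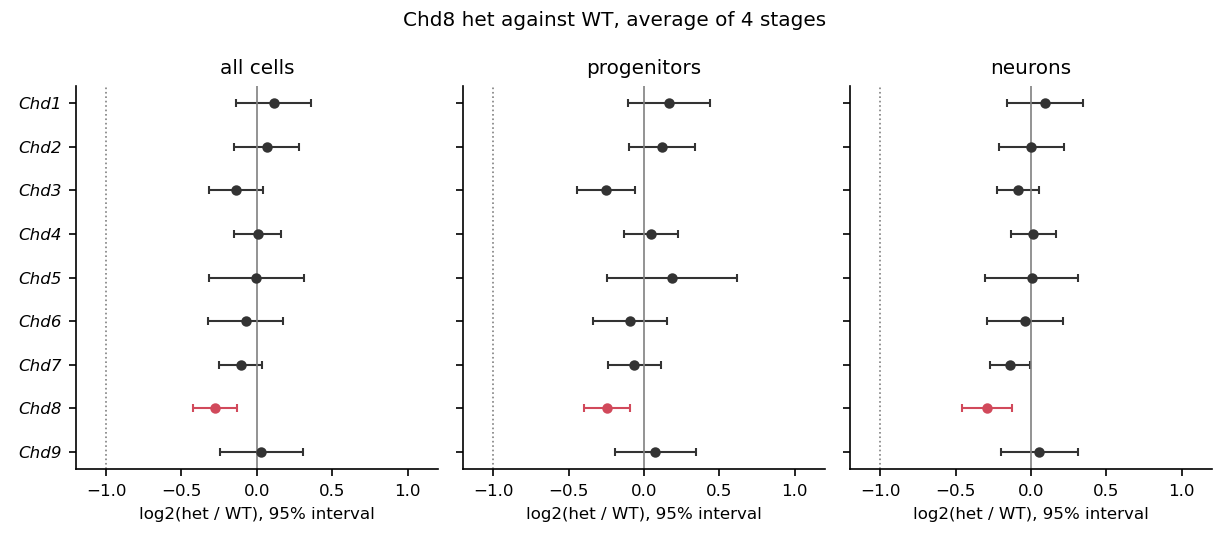
Log2 difference of het minus WT for each member, averaged over 4 stages, with 95% intervals, in all cells, progenitors and neurons; the dotted line marks −1. Chd8, in red, stands at −0.28, −0.25 and −0.29, and no other interval lies wholly above 0.

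No other member was called as higher in het. By edgeR's quasi-likelihood test, 0 of the 9 members passed in all cells (0.352% of genes did), in progenitors (0.177%) or in neurons (0.163%). At an unadjusted p under 0.05, 1084 of 15901, 1060 of 13007 and 820 of 14093 genes passed. The members among them were all lower in het: Chd8 in each, Chd3 in progenitors and Chd7 in neurons. In all cells, the upper bounds of the 95% intervals of the fold were 1.03 for Chd3 and for Chd7, 1.12 for Chd4, 1.13 for Chd6, 1.22 for Chd2, 1.24 for Chd5 and 1.28 for Chd1, and that of Chd9 was 1.23. Among its subfamily, Chd6 stood at a fold of 0.950, Chd7 at 0.929 and Chd9 at 1.02. Within classes, the upper bounds went up to 1.54 for Chd5 and 1.36 for Chd1 in progenitors, and up to 1.27 for Chd1 in neurons. These intervals leave room for increases of that size. By pairs in all cells, Chd1 was higher in het in 11 of 16 and Chd2 in 10 of 16, whereas Chd6 was lower in 12 of 16 (13 of 16 in progenitors) and Chd3 and Chd9 each in 11 of 16. For Chd9 this count runs against its fold of 1.02. In progenitors, Chd3 was lower by −0.25 (SE 0.09, adjusted p = 0.42), in 14 of 16 pairs, and passed with the pair as replicate block (−0.26, adjusted p = 0.047), when 2 of 9 members passed there beside 1.04% of genes. In neurons with the block, Chd8 was the 1 member that passed, beside 0.781% of genes.

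Summed over the other 8 members, WT libraries held 604 ± 163 CPM (SD, n = 16) and het libraries 603 ± 235 CPM in all cells. These means cover unlike stages, with 439 against 333 CPM at E12.5 and 732 against 835 CPM at E17.5. At E17.5 the libraries that stand apart, 1 WT and 2 het, held 1055 to 1145 CPM and the other 5 held 542 to 624 CPM, and the sum was higher in the het library in 1 of 4 pairs. Over all stages the sum was higher in the het library in 5 of 16 pairs, in 6 of 16 in progenitors and in 4 of 16 in neurons. Chd8 made up 7.87% of the family's UMIs in WT and 6.80% in het, and its share was lower in het in 14 of 16 pairs. In neurons the shares were 7.61% and 6.42%, lower in 15 of 16 pairs. In progenitors they were 8.19% and 7.11%, lower in 10 of 16. At E12.5 the share in all cells was 8.48% in WT and 8.10% in het, lower in het in 2 of 4 pairs. At each later stage it was lower in 4 of 4. In progenitors it was lower in 2, 1, 3 and 4 of 4 pairs from E12.5 to E17.5.

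At single stages none of the 12 tests, of 4 stages in all cells, progenitors and neurons, called a member. The share of genes called was 0.239% in all cells, 0.723% in progenitors and 0.0071% in neurons at E12.5. At later stages it was 0 everywhere except in progenitors at E16.0 (0.00769%). At an unadjusted p under 0.05, Chd3, Chd7 and Chd8 were lower in het at E12.5 in all of these sums, Chd8 at E16.0 in all cells and neurons, and Chd5 was higher in het progenitors at E17.5. Those het progenitors held 16.2, 5.08, 16.7 and 4.33 CPM of Chd5. The 2 high values belong to M1 and F1, which stand apart, and the other 2 lie within the WT range of 2.93 to 8.16 CPM. Of 15901 genes in all cells, 2487, 281, 238 and 677 passed that unadjusted threshold at those stages, from E12.5 to E17.5.

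At E12.5, Chd7 and Chd3 were lower in het along with Chd8, by values that passed only in some fits. In all cells, Chd7 went from 110 CPM in WT to 56.6 CPM in het in pair M1, from 98.4 to 43.5 CPM in F1 and from 98.6 to 60.8 CPM in F2, while pair M2 held 84.8 and 85.6 CPM. The log2 difference was −0.59 (SE 0.14, adjusted p = 0.052). With the pair as replicate block it was −0.62 (adjusted p = 0.0091), where 13.9% of genes passed. Chd3, at −0.48 (adjusted p = 0.17) in the main fit, passed with the block at −0.47 (adjusted p = 0.020), as did Chd8 at −0.38 (adjusted p = 0.017) against −0.36 in the main fit. Without het F1 the Chd8 difference in the main fit was −0.22 (adjusted p = 0.77). With the block and without the F1 pair of E17.5, where 19.1% of genes passed, Chd4 (−0.18, adjusted p = 0.0196) and Chd6 (−0.36, adjusted p = 0.0066) passed as lower in het too. The Chd7 difference was −0.76 (adjusted p = 0.0013) without het M2 and −0.47 (adjusted p = 0.40) without het F1, and it passed without any 1 of 7 libraries. Of these 7, het M2 alone is of E12.5, and the rest enter this contrast only through the shared fit. It also passed in DESeq2 (−0.57, adjusted p = 0.0050, 4.95% of genes), with RLE size factors, with doublets kept and without the 3 E17.5 libraries that stand apart. The pairs M1, F1 and F2 are those whose het libraries were shallow, and their sample descriptions carry the code c10 where that of M2 carries c15. The code's meaning is not given in the sources used here, and these het libraries also had the higher stress gene sums given above. The part of depth, of the stress genes and of this code in these values was not tested. The summed level of the other 8 members was lower in het in all 4 pairs, with 439 ± 46 CPM in WT and 333 ± 37 CPM in het.

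**Figure D5:**
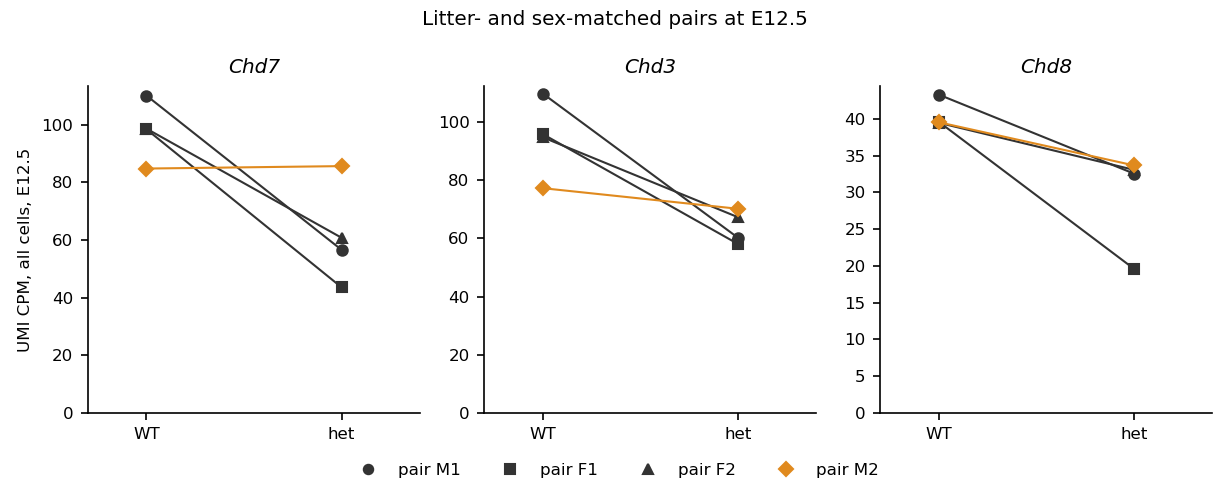
Levels of Chd7, Chd3 and Chd8 in all cells (UMI CPM, y axis from 0) of the 4 pairs at E12.5, with a line from each WT to its het mate. For Chd7, pairs M1, F1 and F2 fall from 98.4 to 110 CPM to 43.5 to 60.8 CPM, and pair M2, in orange, holds 84.8 and 85.6 CPM.

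At later stages, the log2 difference of Chd7 between genotypes in all cells was 0.03 at E14.5 (95% interval −0.25 to 0.31), 0.03 at E16.0 (−0.26 to 0.31) and 0.11 at E17.5 (−0.18 to 0.40). Whether stages differ in the het effect was tested by 1 joint term, which Chd7 did not pass after adjustment (adjusted p = 0.97 in all cells). At E14.5 the 2 male pairs, whose descriptions begin with rm, held more Chd1 (29.3 to 33.7 CPM) than the female pairs (18.1 to 21.9 CPM) in both genotypes. Chd6 followed the same split, at 48.5 to 56.3 CPM against 36.7 to 41.1 CPM. Chd2 (64.2 to 67.4 CPM against 44.7 to 54.9 CPM) and Chd9 (42.6 to 45.9 CPM against 29.9 to 40.2 CPM) did too. So did the stress genes (765 to 890 CPM against 498 to 591 CPM), the ribosomal share (15.2% to 16.96% against 18.9% to 19.8%) and the median depth (8300 to 8645 UMIs per cell against 5930 to 7601). The female pairs carry the codes c12_5 and c24, so sex cannot be told apart from code, depth or these measures there.

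The other genes of these complexes were counted from 3 lists. Of 12 NuRD partners, 5 were higher and 7 lower in neurons (median log2 difference −0.27, against 0.04 over all genes), a list in which every member passed where 89.2% of all genes did, while the motors Chd3, Chd4 and Chd5 were each higher. The lowest were Rbbp7 (−1.40), a histone chaperone, the deacetylase Hdac1 (−1.07) and Mta3 (−0.50), a scaffold subunit. The highest were the other deacetylase Hdac2 (0.59), the methyl-CpG binder Mbd2 (0.52) and Cdk2ap1 (0.38). From E12.5 to E17.5 in all WT cells, 7 NuRD partners fell, led by Rbbp7 (−1.36), Hdac1 (−1.32) and Rbbp4 (−0.98), and 1 rose, Gatad2b (0.87), with a median of −0.50 against 0.04 over all genes, of which 32.9% fell and 34.7% rose. In progenitors 8 fell and 1 rose, where 28% of all genes fell and 29.2% rose. In neurons 6 fell and 2 rose, Mta1 and Gatad2b (both 0.96), where 26.9% of all genes fell and 28.7% rose.

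Of 12 other partners of CHD proteins, 3 were higher and 8 lower in neurons (median −0.22, against 0.04 over all genes, of which 46.3% were higher and 42.9% lower). Higher were Adnp (0.79), which joins Chd4 in a further complex, and the histone methyltransferases Kmt2b (0.61) and Kmt2a (0.34). Wdr5 (−0.75), a core subunit of such methyltransferases, and the heterochromatin proteins Cbx1 (−0.49) and Cbx5 (−0.43) were lowest. With stage in all WT cells, 7 of the 12 fell and 3 rose (median −0.30), beside 67.7% of all genes that passed in either direction, led by Wdr5 (−1.204) and Kmt2a (0.95). Of 15 other ATPases of the SNF2 family, 9 were higher and 5 lower in neurons (median 0.15), so that the share that passed was near the 89.2% over all genes. Smarca2 (1.21) and Smarca4 (0.90), the alternative motors of the BAF complex, and Smarca1 (0.72) led the first group, and Hells (−2.92), Chd1l (−2.79) and Btaf1 (−0.49) the second. Smarca2 also rose most with stage in all WT cells (1.92), in a list of which 6 rose and 3 fell (median 0.21), where 67.7% of all genes passed. Between genotypes, averaged over stages, 0 of 12, 0 of 12 and 0 of 15 genes of these lists passed in all cells, progenitors or neurons by edgeR's test, with list medians between −0.04 and 0.03.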

How the data were processed

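The authors deposited UMI counts per gene and barcode for each of the 32 libraries, as raw whole numbers in sparse matrices made from 3′ droplet libraries (10x Genomics), per the labels' protocols. The submitters' processing notes name STAR 2.7.9a, STARsolo, Cell Ranger and mm10, without their roles. The members and gene lists were chosen with earlier results of these data known.

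A barcode was kept if it held 1000 UMIs or more from 500 genes or more, with a mitochondrial share of no more than 10%. Doublets were scored within each library against simulated pairs (0.5 per cell, 2000 variable genes, 30 components, 20 neighbours), and the highest scores were removed at 0.8% per 1000 cells, 5471 cells in all, of which 40.1% carried both class markers. Counts were summed per library over all cells, progenitors and neurons, with at least 20 cells per sum. edgeR 4.0.16 (R 4.3.3; quasi-likelihood test, TMM scaling, filterByExpr) was fitted across all 8 groups and all genes passing the filter, with Benjamini-Hochberg adjustment and a threshold of 0.05. All 9 members passed the filter in each fit. The class fit held the library as a block. Standard errors were derived from the F statistics, and p-values cover the spread between embryos. Per member, summed UMIs lay between 20 and 11136 in all cells of a library, which sets the counting error; Chd5 is the least precise. The fits were also run on simulated counts with a fixed spread. Those counts held no likeness between mates and no libraries that stand apart, so they do not test these features.

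The labels say that a pair is matched for litter and sex. Same-numbered libraries also deviated together: the correlation of their deviations over 10299 genes lay between 0.166 and 0.849 (median 0.661), over 0.1 in 16 of 16 pairs, and 13 of 16 libraries correlated best with their own number. The exceptions were M1 (0.166) and F1 (0.274) at E12.5 and M2 (0.226) at E16.0. The pair was a block in an alternative only. The other fits, those behind the mean of WT and het contrasts among them, counted mates as independent embryos. Other alternatives were DESeq2 1.42.0, RLE size factors, no filter on low counts, doublets kept, other class rules, thinned cells and leaving out each library; leaving out the 3 E17.5 libraries, leaving out E12.5, and the block without the F1 pair of E17.5 were chosen after seeing the data. All members were tested in each comparison. Of each list, up to 3 passing genes per direction with the largest differences are named. For likeness, the 3 genes with the highest correlation are named for Chd8 and for the members with the largest class difference in each direction. The lists of NuRD partners, other partners and SNF2 ATPases hold 12, 12 and 15 genes.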

Additional observations from a re-analysis of the deposited data

Results flagged for a closer look

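In groups of 4 libraries, 17 of 216 sets of values had 1 library far from the other 3 by Dixon's gap-to-range ratio at its 95% critical value. Chance gives about 1 in 20. Of the 17, 8 came from WT M1 at E17.5, a library that stands apart: in all cells Chd3 (369.7 CPM, others 232.2 to 244.3), Chd4 (228.9, others 127.4 to 135.2) and Chd6 (154.9, others 55.73 to 68.24), in progenitors Chd2 (106.5, others 39.39 to 48.58) and Chd6 (156.2, others 48.58 to 56.86), and in neurons Chd3 (438.8, others 283.4 to 291.4), Chd4 (229.8, others 133.7 to 143.6) and Chd6 (154.4, others 58.35 to 70.1). All 8 were high.

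The shallowest E12.5 library, het F1, was low in 4: Chd1 (18.79 CPM, others 23.48 to 24.27) and Chd8 (19.59, others 32.55 to 33.66) in all cells, and Chd8 (18.51, others 31.99 to 32.45) and Chd9 (11.88, others 15.43 to 15.75) in progenitors. WT M1 at E12.5 was high for Chd8 in all cells (43.28 CPM, others 39.46 to 39.58) and for Chd9 in neurons (34.69, others 27.26 to 27.88). The other 3 were Chd2 in all cells of WT F1 at E16.0 (61.01 CPM, others 69.39 to 70.58), Chd7 in progenitors of het M2 at E16.0 (76.61, others 85.32 to 86.94) and Chd8 in neurons of WT F1 at E14.5 (57.05, others 44.3 to 45.44).

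The difference between neurons and progenitors differed between E17.5 and E12.5 by the test of that difference in 7 members, where 56.9% of genes passed. On the log2 scale, E17.5 minus E12.5, it was 0.5398 for Chd1, −0.2156 for Chd4, −1.106 for Chd5, 0.276 for Chd6, −3.128 for Chd7, 0.2444 for Chd8 and −0.3401 for Chd9.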

How the results depend on the processing

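Over 82 values of the members and 3344 alternatives, 3237 kept direction and call, 64 lost the call, 42 gained it and 1 turned direction. None of the 32 called values turned direction. A further 189 alternatives, of 31 values, changed sign with no call on either side and are counted among the 3237. The value that turned was the stage change of Chd4 in WT progenitors, 0.03, which was called as lower without the 3 E17.5 libraries that stand apart (−0.23) and as higher with the mean of WT and het contrasts (0.31).

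The het difference of Chd8 gained its call in all cells with DESeq2 (−0.28), the replicate block (−0.29), the block without the F1 pair of E17.5 (−0.31) and without the 3 libraries (−0.32). It did so in progenitors with the block (−0.25) and the block without F1 (−0.28), and in neurons with the block (−0.30), the block without F1 (−0.33) and without the 3 libraries (−0.34). In all cells and in neurons, the F1 pair of E17.5 was the pair with more Chd8 in het. Its het library is among the 3, so the settings without them leave out that contrary value. The number of members called between genotypes was accordingly 1 in all cells in those 4 settings, 2 in progenitors with either block, and 1 in neurons in those 3 settings. Of all genes, 1.7% passed with the replicate block in all cells, 1.04% in progenitors and 0.781% in neurons. With DESeq2 0.826% passed in all cells. Without the 3 libraries, 0.393% passed in all cells and 0.273% in neurons. With the mean of WT and het contrasts, 8 members were called for stage in progenitors, where 71.8% of genes passed. With this mean, Chd4 in all cells (0.36) and Chd1 in neurons (0.72) gained their call. In the WT contrast in progenitors, where 57.2% of genes passed with all libraries, leaving out each library called 2 to 4 members. The change of the class difference called 3 members with the pair as replicate block, beside 52.5% of genes. Beside the calls given with the report, the pairing changed no other call of the genotype averages.

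The number of all genes called between genotypes in all cells was 56, and 120 with DESeq2, 27 with no filter, 270 with the replicate block, 325 with the block without F1 and 9 without E12.5. In progenitors it was 23, and 73 with DESeq2, 37 without the 3 libraries, 135 and 133 with the blocks, 4 without E12.5, 67 with cells of both markers in both classes, 13 with at least 2 marker UMIs and 2 with thinned cells. In neurons it was 23, and 57 with DESeq2, 39 without the 3 libraries, 110 and 142 with the blocks, 12 without E12.5 and 6 with thinned cells. With thinned cells, 4773 in place of 7436 genes were called for stage in progenitors and 4934 in place of 8156 for the change of the class difference. Thinning leaves fewer UMIs. The causes of these changes were not tested. Depth limits Chd5 most, with 0 to 47 UMIs per library in progenitors.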
